A study of Mus musculus with 9 samples.

Results

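The genes described here are the 10 genes Mfn1, Mfn2, Opa1, Dnm1l, Fis1, Mff, Mief1, Mief2, Oma1 and Yme1l1, which carry out or control the fusion and fission of mitochondria. They were taken by name and by no cutoff on a measured value, but with earlier results of these data known. All 10 were found among the 55416 genes of the count table. The libraries came from interscapular brown adipose tissue (BAT) of C57BL/6J mice aged 8 to 10 weeks that expressed Cas9. An adeno-associated virus of serotype 8 (AAV8) had been injected straight into the fat pad and carried either a guide RNA against Ucp1 (AAV8-UCP1 sgRNA, 4 samples) or a control guide (AAV8-Control sgRNA, 5 samples), and the mice were then housed at 22 °C for 14 days. All animals thus shared Cas9, the injection and the AAV8 vector. The promoter that drives Cas9 is not given in the sources used here, and the tissue is a mixture in which adipocytes and other cells are not separated.

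The 9 count columns carry a number and the tissue abbreviation, and 0 of the 9 numbers occur in a sample title or description. No column was therefore given to a guide, and no comparison of the guides was made. Each column is called a library here, and the letters A to I follow the ascending order of the numbers in the column names. Every value below describes the 9 libraries as they stand, with both guides among them.

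Mitochondria join and divide continuously. Mitofusins 1 and 2 (Mfn1, Mfn2) are GTPases of the outer membrane that tether and fuse neighbouring mitochondria, and Opa1 is the GTPase that fuses the inner membranes and holds the cristae in shape. The proteases encoded by Yme1l1 and Oma1 cut the Opa1 protein, Oma1 mainly under stress. Division is driven by Drp1, the dynamin-related GTPase encoded by Dnm1l, which is drawn from the cytosol to the outer membrane by Mff, Fis1 and the proteins MiD51 and MiD49, encoded by Mief1 and Mief2. In brown adipocytes, which are packed with mitochondria, the shape of the network is known to change when thermogenesis is switched on.

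The libraries held 15460829 to 17909534 counts each (median 17100358). Rank correlation between libraries over the 12132 genes tested lay between 0.963 and 0.989, and 0 of the 36 pairs of libraries were identical. A gene counted as tested when its median was at least 1 CPM (counts-per-million of the column sum) and it had a count in every library, and all 10 members passed. All members are nuclear genes. The 37 genes of the mitochondrial genome took 22.3% of the counts in library A and 33.9% in library F, with a median of 31.5%, and this share is part of the denominator of every CPM value. The adipocyte gene Adipoq was between 576 and 735 CPM and the brown adipocyte gene Cidea between 1265 and 1749 CPM, so both markers were present in all 9 libraries. Brown adipocyte markers were not all so even. The sum of 12 of them, Ucp1 and Cidea included, was 4637 CPM in library E and 8676 CPM in library C. Ucp1, the guide target, was itself 396 CPM in library E and 4620 CPM in library C. This sum therefore mostly follows Ucp1 and gives no measure of brown adipocyte content. In bulk tissue, fewer cells of a type and less RNA per cell cannot be told apart.

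The outer membrane fusion pair was unequal. Mfn2 was the most abundant of the 10 transcripts in counts, at 367 CPM in the lowest library (C), 424 CPM at the median and 527 CPM in the highest (A). Mfn1, its paralogue, was at 53.7 CPM in library B, 59.0 CPM at the median and 72.8 CPM in library H. The ranges of the paralogues did not overlap, and Mfn2 alone made up between 35.8% and 43.6% of the counts of the 10 genes. Opa1, the inner membrane GTPase, had 181 CPM in library F, 224 CPM at the median and 272 CPM in library H. It stood between the mitofusins in every library.

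The OPA1-cutting proteases had the lowest summed counts of the 3 roles, 57.8 to 85.8 CPM, where CPM are not corrected for length. Yme1l1 was at 49.997 CPM in library F, 61.6 CPM at the median and 77.6 CPM in library H. Oma1, the stress-activated protease, was the lowest of the 10, at 7.74 CPM in library C, 8.27 CPM at the median and 11.2 CPM in library A. Its values rest on 121 to 199 counts per library, so counting error alone gives it a coefficient of variation near 8.27%, against 1.17% for Mfn2 with 5875 to 9345 counts.

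Of the fission genes, Dnm1l, the GTPase that constricts mitochondria, had 72.3 CPM in library B, 88.8 CPM at the median and 99.7 CPM in library E. Mff, its main outer membrane receptor, had 64.6 CPM in library F, 80.1 CPM at the median and 108 CPM in library H. Fis1, a small outer membrane adaptor, lay between 39.6 CPM (library D) and 59.5 CPM (library F), with a median of 49.8 CPM. The MiD genes were lower: Mief2 lay between 30.8 CPM in library D and 43.2 CPM in library B (median 37.7 CPM). Mief1 lay between 29.5 CPM in library D and 35.8 CPM in library E (median 31.9 CPM), the lowest ratio of highest to lowest library among the 10. Summed by role in CPM, which are not corrected for length, the fusion genes Mfn1, Mfn2 and Opa1 gave 616 to 826 CPM. The 5 fission genes gave 260 to 328 CPM, without overlap. Mfn2 was the largest part of the fusion sum. Sums per length were not compared, so these sums give no order of transcript numbers between the roles. The sum of all 10 genes was 947 CPM in library F, 1092 CPM at the median and 1208 CPM in library A.

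**Figure D1:**
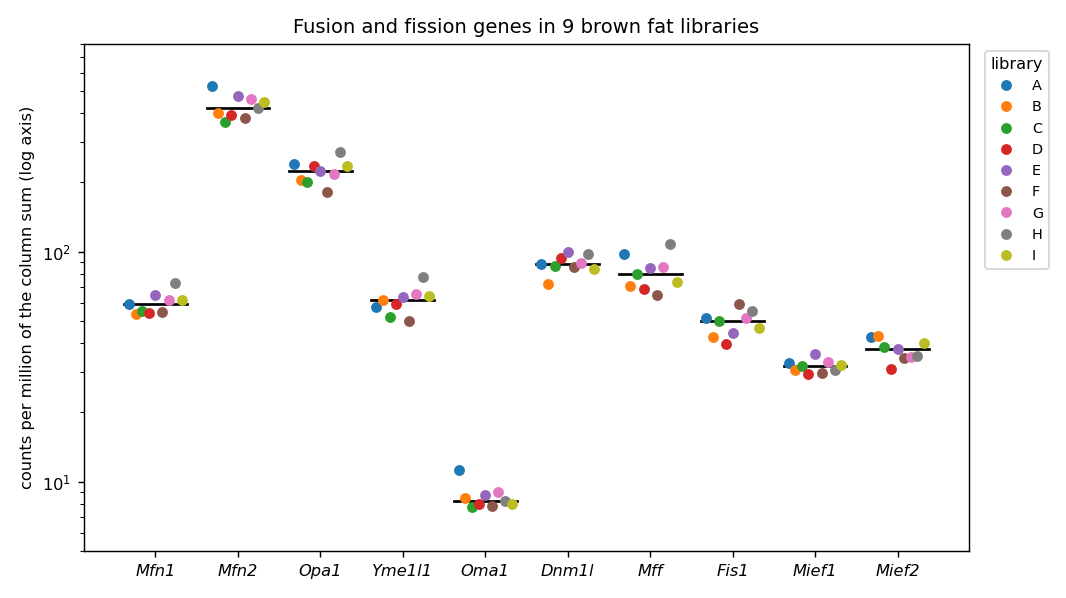
CPM of the column sum (log axis) of each gene in the 9 libraries, coloured by library, with a black line at the median. Mfn2 lies highest at 367 to 527 CPM and Oma1 lowest at 7.74 to 11.2 CPM, and the libraries of each gene lie close together.

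The promoters of the 10 genes were read from RefSeq windows of GRCm38.p6, each of 300 bases with 250 before the start and 50 after it. All 10 genes matched, with 15 windows between them. The build of the counts is GRCm39, so no coordinate was joined to the counts. Motifs were searched on both strands by their letters alone, and were chosen with the windows in view: GCATGCGC for NRF1, CCGGAAG for ETS factors such as GABP, AANATGGC for YY1, ACGTCA as the core of a cAMP response element, AAGGTCA for estrogen-related receptors and GGGCGG for SP1. Matches may overlap each other.

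The 3 sequences below belong to the fusion genes and are shown because they differ in these motifs, 250 bases up to the start, 5′ to 3′ on the gene's strand, with motif matches in capitals. Opa1 lies at chr16:29579084-29579333 on the plus strand, Mfn1 at chr3:32529232-32529481 on the plus strand and Mfn2 at chr4:147904662-147904911 on the minus strand, all in GRCm38.p6.

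Opa1: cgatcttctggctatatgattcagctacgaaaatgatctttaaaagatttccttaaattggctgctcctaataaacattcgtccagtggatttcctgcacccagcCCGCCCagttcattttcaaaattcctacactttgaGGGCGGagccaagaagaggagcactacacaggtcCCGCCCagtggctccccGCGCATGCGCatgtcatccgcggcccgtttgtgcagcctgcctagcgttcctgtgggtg

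Mfn1: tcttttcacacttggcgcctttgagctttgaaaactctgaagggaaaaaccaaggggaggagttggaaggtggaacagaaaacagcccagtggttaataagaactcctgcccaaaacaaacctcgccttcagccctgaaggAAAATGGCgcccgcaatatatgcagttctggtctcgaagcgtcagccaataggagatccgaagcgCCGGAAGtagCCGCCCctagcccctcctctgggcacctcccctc

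Mfn2: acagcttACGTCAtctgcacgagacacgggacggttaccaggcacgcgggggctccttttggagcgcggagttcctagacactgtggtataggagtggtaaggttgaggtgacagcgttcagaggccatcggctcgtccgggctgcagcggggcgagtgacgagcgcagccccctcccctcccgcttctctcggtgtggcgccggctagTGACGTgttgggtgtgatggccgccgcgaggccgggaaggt

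In Opa1 the capitals mark overlapping NRF1 matches on opposite strands and SP1 matches. In Mfn1 they mark YY1, ETS and SP1 matches, and in Mfn2, the first of its 3 windows by position, 2 matches of the cAMP response element core. The NRF1 letters occurred in 1 of the 15 windows, that of Opa1, and in 2.71% of all 32851 windows. The ETS letters occurred in 6 of the 15 windows, belonging to Dnm1l, Fis1, Mfn1, Mief1 and Yme1l1, and in 8.86% of all windows. YY1 letters were in 4 windows, of Mff, Mfn1 and Mief1, against 6.05% of all windows, and the cAMP response element core was in 4 windows, of Mfn2 and Mief1, against 7.51%. SP1 letters were in 13 of the 15 windows, with all 10 genes represented, against 35.7% of all windows. The members' windows held a median of 16 CpG and 55.2% GC, and all windows a median of 6 CpG and 52.4% GC, and the part of base composition in these shares was not tested. The letters of the estrogen-related receptor motif were in 0 of the 15 windows and in 4.72% of all. Windows of 1 gene overlap where its starts are close, so the 15 are not independent, and a match describes the letters only.

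Levels of different genes compare only per length, so the CPM were divided by the kilobases of all annotated exons of each gene, taken from GENCODE M21. Mfn2 remained first, at a median of 81.5 CPM per kilobase (70.6 to 101). Fis1, the shortest of the 10 with 1714 exon bases, came next with 29.1 (23.1 to 34.7), and Opa1 overlapped it at 28.4 (23.0 to 34.6). Dnm1l followed at 17.1 CPM per kilobase, Mief2 at 13.9, Mfn1 at 9.65, Mff at 8.21 and Yme1l1 at 7.69. Mief1 and Oma1 closed the order at 3.93 and 3.86 CPM per kilobase. Only 3 steps of this order were free of overlap between neighbours: Mfn2 over Fis1, Opa1 over Dnm1l, and Yme1l1 over Mief1. Dividing instead by the longest annotated transcript kept 2 of these steps and put the last one between Mfn1 and Mief1. Mff was the gene whose level changed most in fold with the choice, with 8.21 CPM per kilobase of exons and 20.4 per kilobase of its longest transcript, since its 16 annotated transcripts cover 9757 bases of exon and the longest has 3918.

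**Figure D2:**
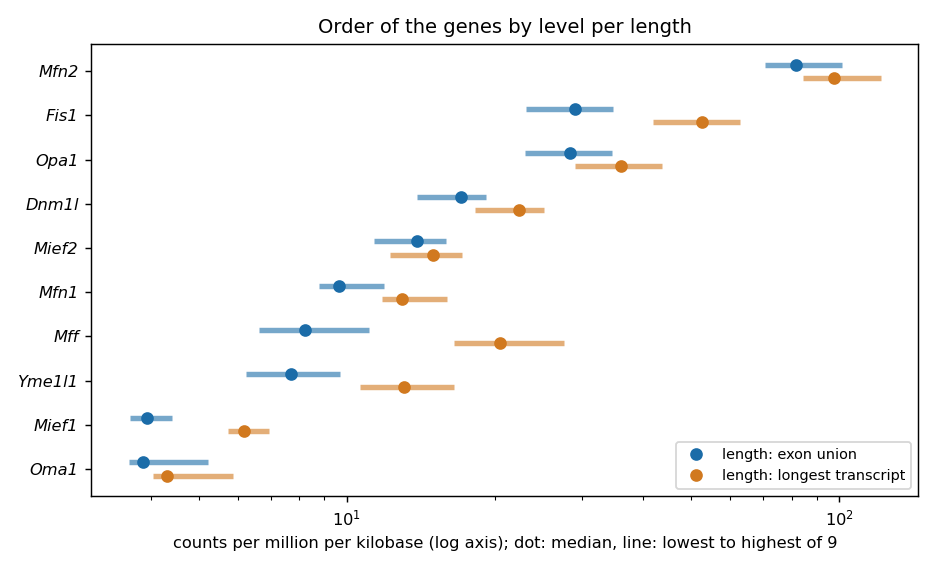
Level of each gene in CPM per kilobase (log axis), with the median as a dot and the lowest to highest of the 9 libraries as a line, for the length of all exons (blue) and of the longest transcript (orange). Mfn2 is first under both lengths, and Mff moves from 8.21 to 20.4.

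Ratios of counts inside 1 library do not depend on how the library is scaled. The count ratio of Mfn2 to Mfn1 was 5.81 in library H, 7.26 at the median and 8.93 in library A. Per kilobase of exon the median ratio was 8.55. Library H had the highest Mfn1 of the 9 and a Mfn2 at the median. On the log2 scale the ratio spanned 2.54 to 3.16, while the counting error of a single library was near 0.05. The count ratio of the proteases Yme1l1 and Oma1 was lowest in library A, at 5.13, had a median of 7.25 and was highest in library H, at 9.38. On the log2 scale that ratio spanned 2.36 to 3.23, with a counting error near 0.13. Its median per kilobase of exon was only 1.94. Libraries A and H were therefore at opposite ends of both ratios, and the remaining 7 libraries lay between 6.39 and 8.01 for Yme1l1 over Oma1.

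The fission GTPase Dnm1l had fewer counts than the inner membrane fusion GTPase Opa1 in all 9 libraries. Their ratio was 0.352 in library B, 0.397 at the median and 0.472 in library F, and log2 values from -1.51 to -1.08 exceeded the counting error of about 0.04. The median of this ratio per kilobase of exon was 0.601. The ratio of Mief1 to Mief2 was 0.708 in library B, 0.858 at the median and 0.956 in library D. Mief1 had fewer counts than Mief2 in every library, but the counting error of the log2 ratio was near 0.08. In libraries D, E and G the log2 ratio was -0.064, -0.072 and -0.076, each within 1 counting error of equal counts. Per kilobase of exon the median ratio was 0.287, because Mief1 has 8106 exon bases and Mief2 has 2716.

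**Figure D3:**
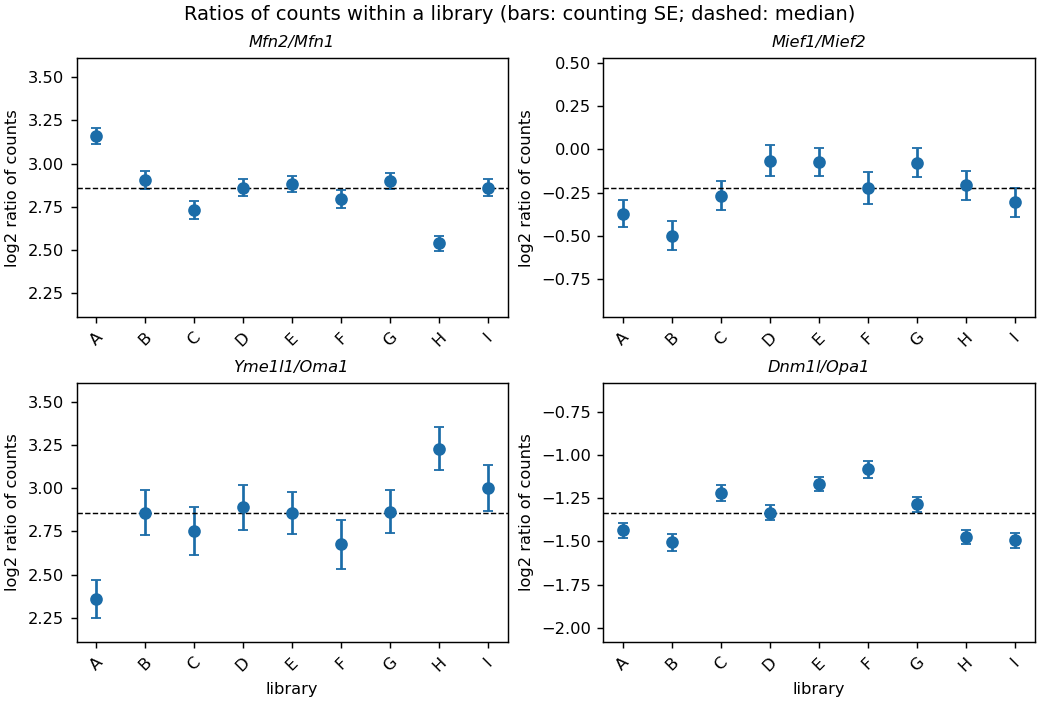
Log2 ratio of counts within each of the 9 libraries for 4 pairs of genes, with bars for 1 counting standard error and a dashed line at the median. Libraries A and H lie at opposite ends for Mfn2 over Mfn1 and for Yme1l1 over Oma1.

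The 10 genes varied little from library to library. The ratio of the highest to the lowest library was 1.22 for Mief1, 1.36 for Mfn1, 1.38 for Dnm1l, 1.40 for Mief2, 1.44 for Mfn2 and 1.45 for Oma1. It was 1.5 for both Fis1 and Opa1, 1.55 for Yme1l1 and 1.68 for Mff. The median of these ratios was 1.44, beside 1.69 over the 12132 genes tested and 1.53 over those with a median of at least 10 CPM. By the coefficient of variation, 9 of the 10 lay below the median of all genes tested (17.3%), with a median of 11.9%, and Mff was just above it at 17.4%. Counting noise falls with level, so a second comparison used higher genes only. Against the 7454 genes with a median of at least 10 CPM, whose median coefficient was 14.2%, again 9 of 10 members lay below. Mief1, with 6.36% against a counting error of 4.3%, varied less than 98.8% of the genes tested.

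**Figure D4:**
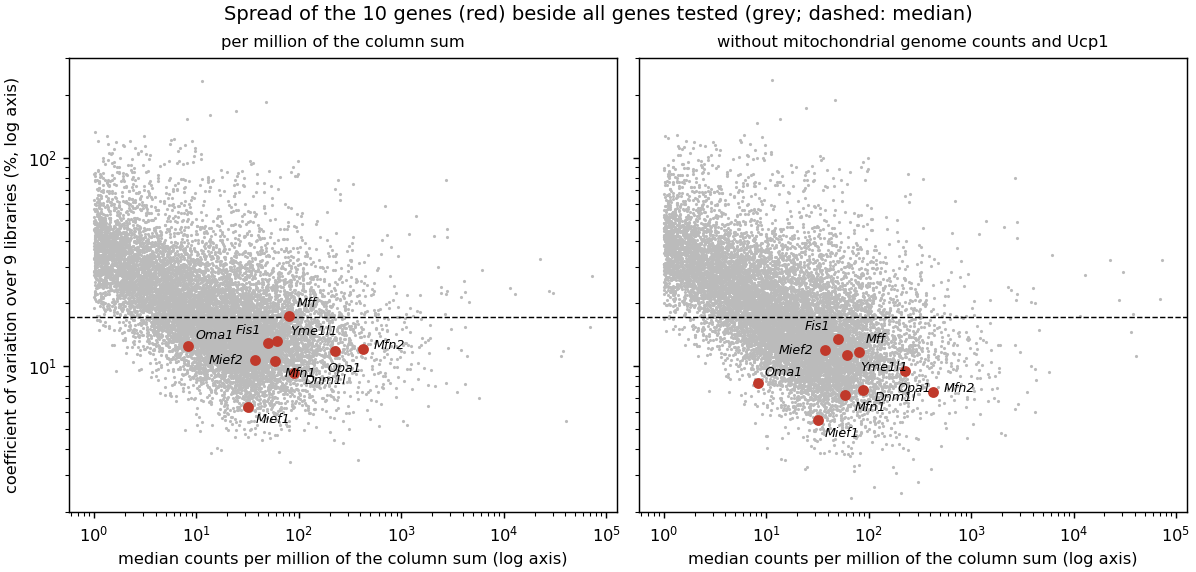
Coefficient of variation over the 9 libraries (%, log axis) against the median CPM (log axis) for all genes tested (grey) and the 10 genes (red), scaled by the column sum (left) and by the sum without mitochondrial genome and Ucp1 counts (right). The dashed line is the median of all genes, 17.3% at the left, and 9 of the 10 genes lie under it there.

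The libraries in which the members were high differed in their share of mitochondrial genome counts. Libraries A, E, G and H, the 4 with Ucp1 up to 606 CPM, had shares of 22.3% to 26.5%. The 5 with Ucp1 from 2704 CPM had 31.5% to 33.9%. Mitochondrial share and Ucp1 thus split the libraries into the same sets and cannot be told apart here. In CPM of the column sum, 8 of the 10 genes were above their own median in library G, where that share was 26.5%. The count was 7 in library A (22.3%) and also in library E (25.8%), and it was 6 in libraries H (24.9%) and I (31.8%). It was 2 in libraries B (33.8%) and D (33.2%), and 1 in libraries C (31.5%) and F (33.9%). In library D the median log2 deviation from a gene's own median was -0.11 over the members and also -0.11 over all genes tested, and in the other 8 libraries that of all genes lay between -0.02 and 0.03. When CPM were taken of a reduced sum, without mitochondrial genome genes and Ucp1, these counts lay between 2 and 6 of 10, with 4 in libraries A, C and E. The part of the mitochondrial share in the members' values was not tested beyond this change of denominator. The median ratio of highest to lowest library over the 10 genes was then 1.31, and for Mfn2 it fell from 1.44 to 1.26 and for Opa1 from 1.5 to 1.32. The coefficients of variation of all 10 genes lay below the median of all genes tested under this scaling (17.2%), with a median of 8.89%. So did those of 5282 of the 7454 genes with a median of at least 10 CPM. Against the median of those higher genes, 13.3%, 9 of the 10 members lay below, and Fis1 was above at 13.5%.

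Most of the highest and lowest libraries were the same under both scalings, with exceptions such as Yme1l1, lowest in library F by the column sum and in library A by the reduced sum. Library H was highest for Mfn1, Opa1, Mff and Yme1l1 by either denominator, and library A was highest for Mfn2 and Oma1. Library F was lowest for Opa1 and Mff and highest for Fis1 by either denominator. Fis1 in library F reached 90.6 CPM of the reduced sum, and the next library had 73.7. Library H also had the highest summed level of 12 nuclear-encoded respiratory chain genes, 17350 CPM, where the median was 14393 CPM. Relative to that sum, the 10 genes gave 63.1 counts per 1000 respiratory chain counts in library C, 74.7 at the median and 81.5 in library G, and 68.1 in library H.

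**Figure D5:**
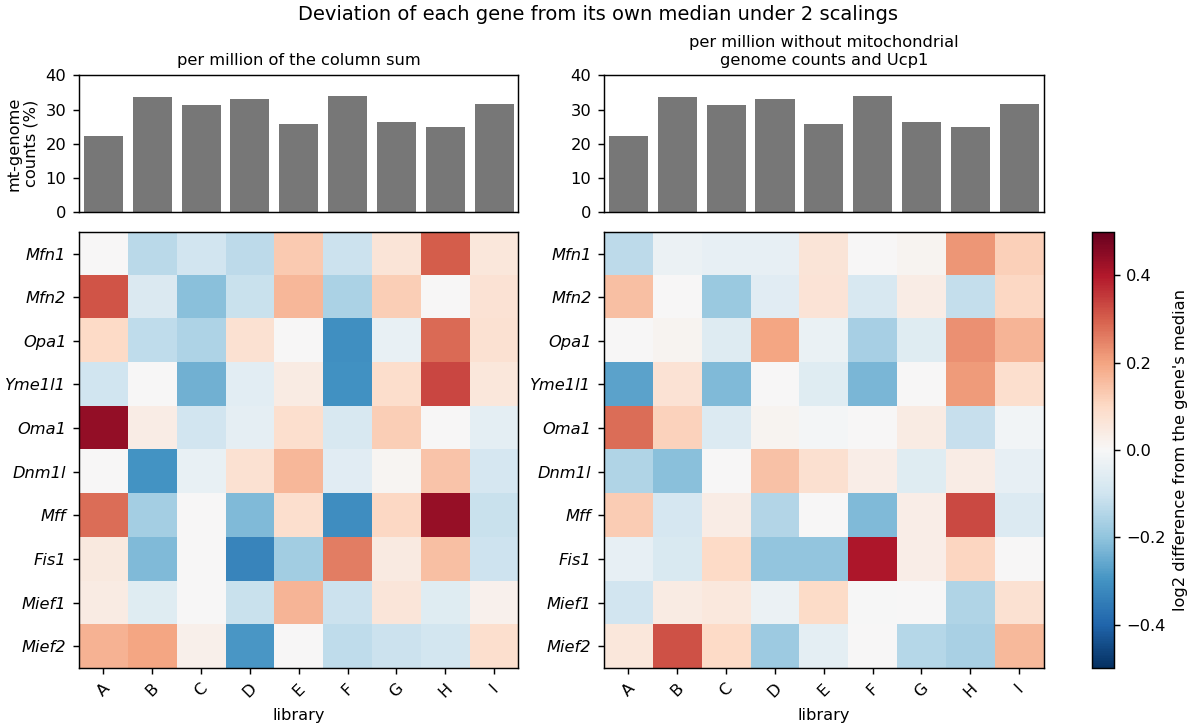
Upper panels show the share of mitochondrial genome counts in each library (%), and lower panels the log2 difference of each gene from its own median (colour), in CPM of the column sum (left) and of the sum without mitochondrial genome and Ucp1 counts (right). Library H is above the median for Mfn1, Opa1, Yme1l1 and Mff under both scalings, and library G, with 8 of 10 genes above the median at the left, is pale in both.

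Whether members varied together was examined for 8 pairs set by role, with exact two-sided permutation tests over the 9 libraries. Nothing in the labels says that the libraries are separate animals, so these p-values measure the spread between samples only, and both guides are among them. The tests also pool libraries with low and with high Ucp1. A shift of both genes of a pair between those libraries can change rho by itself, and its part was not tested. Spearman's rho was 0.57 for Mfn1 with Mfn2 (exact p = 0.121), 0.55 for Mfn2 with Opa1 (exact p = 0.133) and 0.53 for Opa1 with Yme1l1 (exact p = 0.148). It was 0.52 for Dnm1l with Mff (exact p = 0.162), 0.45 for Opa1 with Oma1 (exact p = 0.230), 0.40 for Oma1 with Yme1l1 (exact p = 0.291) and 0.33 for Mief1 with Mief2 (exact p = 0.385). It was 0.02 for Dnm1l with Fis1 (exact p = 0.982). Adjusted over all genes tested against the first gene of each pair, the exact permutation p-values lay between 0.416 and 0.996, so none of the 8 pairs passed, and 0 of the 8 had an unadjusted exact p under 0.05. With edgeR's trimmed mean of M-values (TMM) the rho of Opa1 with Yme1l1 was 0.85 (exact p = 0.00607, exact permutation p = 0.571 after adjustment over all genes). With DESeq2 size factors, another scaling, the rho of this pair was also 0.85 (exact permutation p = 0.570 after adjustment). With the reduced sum it was 0.68 (exact p = 0.0503, exact permutation p = 0.726 after adjustment).

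Pearson's r of log2(CPM + 1) lay between 0.10 for Oma1 with Yme1l1 (exact permutation p = 0.756) and 0.81 for Opa1 with Yme1l1 (exact permutation p = 0.0109). The other 6 pairs had r from 0.13 to 0.52 with exact permutation p from 0.154 to 0.753. After adjustment over all genes the exact permutation p-values of r were 0.302 for Opa1 with Yme1l1 and between 0.475 and 0.932 for the other pairs. Without libraries F and H, the farthest from the median of Opa1, r between Opa1 and Yme1l1 was 0.32. Leaving out the lowest and highest Opa1 narrows its range, which tends to lower r by itself. It cannot show whether the relation rests on those 2 libraries. The same omission of the 2 libraries farthest from the first gene's median gave r from -0.10 for Dnm1l with Fis1 to 0.75 for Mfn1 with Mfn2 in the remaining pairs.

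Over all 45 pairs of the 10 genes, 39 had a rho above 0 in CPM of the column sum, with a median of 0.38. An unadjusted exact p under 0.05 was reached by 3 of the 45 pairs, which is 6.67%. These were Mfn1 with Mff (rho 0.78), Mfn2 with Mief1 (0.77) and Mfn2 with Oma1 (0.87), named here after their values were seen. None of these 3 pairs reached that threshold with TMM, DESeq2 size factors or the reduced sum. With the reduced sum their rho was 0.15, 0.22 and 0.55. The same threshold was passed by 11.9% of all genes against Mfn1, 15.6% against Mfn2, 8.8% against Opa1, 9.1% against Dnm1l, 10.6% against Mief1 and 13.3% against Oma1. It was passed by 19.8% of all genes against Mff, 5.58% against Yme1l1, 4.59% against Fis1 and 4.48% against Mief2. The 6.67% of the members' pairs lay inside the range of these 10 shares. With the sum without mitochondrial genome genes and Ucp1 as denominator, 21 of the 45 pairs had a rho above 0 and their median was -0.05. With TMM it was 29 of 45 pairs with a median of 0.10, and 4 of the 45 pairs (8.89%) had an unadjusted exact p under 0.05, where the share of all genes ran from 2.85% against Mief1 to 17.3% against Mff. Dnm1l with Mief2 was the pair with the lowest rho under each of these scalings, at -0.50 for the column sum, -0.73 for TMM and -0.72 for the reduced sum.

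Rank correlation of the members with Ucp1, the target of the guide, is not given. Ucp1 spanned 396 to 4620 CPM and its values fell into separate sets of libraries, each with fewer than the 6 libraries needed for a correlation, so that a relation with Ucp1 could not be tested. No member fell into separate sets by the same criterion, a gap above 0.5 of the log2 range with at least 2 libraries on each side.

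The surrounding machinery was read from a list of 42 other genes of mitochondrial dynamics and membrane shaping, of which 40 were tested and 2, Mtfr2 and Gdap1, were below the filter. The median ratio of highest to lowest library was 1.48 over the 40, close to the 1.44 of the members. In 33 of the 40 the coefficient of variation was below the median of all genes. So it was in 5144 of the 7454 genes with a median of at least 10 CPM. Against the median of those higher genes, 27 of the 40 lay below. The genes named from this list were picked after their values were seen. Immt, which encodes the core subunit of the cristae-organising MICOS complex, lay between 582 and 847 CPM, and its partner Chchd3 between 242 and 372 CPM. Letm1, an inner membrane protein of ion exchange, had a ratio of 1.82 between 433 and 787 CPM. Pink1, the kinase that marks damaged mitochondria, lay between 214 and 262 CPM. Afg3l2, a subunit of the inner membrane m-AAA protease, lay between 212 and 304 CPM.

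The profiles most like that of Mfn2 across the 9 libraries, by Pearson's r of log2(CPM + 1) among 7450 named genes with a median of at least 10 CPM, were those of Adipor2 (r = 0.97), Zdhhc5 (r = 0.97) and Cand1 (r = 0.96). For Opa1 they were Pcmtd1 (r = 0.97), Hibch (r = 0.96) and Pcca (r = 0.94). For Dnm1l they were Tmem45b, Slc44a3 and Aplp2 (each r = 0.92). With the reduced sum as denominator Adipor2 was still among the first 3 for Mfn2 (r = 0.90), Pcmtd1 and Hibch for Opa1 (r = 0.95 and 0.94) and Aplp2 for Dnm1l (r = 0.85). These genes were picked as the highest r of 7450 over only 9 libraries, so selection alone can give high values. No test was made of them. Both denominators use the same counts, so a gene that stays among the first 3 has no separate support.

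Skeletal muscle RNA was the marker list that moved most. Its 10 genes were counted in all libraries, and their sum was 181 CPM in library C, 893 CPM at the median and 3511 CPM in library F, a ratio of 19.4. Acta1, the actin of skeletal muscle, lay between 49.0 and 1032 CPM, Ckm, the muscle creatine kinase, between 23.6 and 418 CPM and Myh4, a fast myosin heavy chain, between 51.4 and 686 CPM. Library F was the library with the lowest Opa1, Mff and Yme1l1 and the highest Fis1 in CPM. The part of muscle RNA in those values was not tested. Without library F, the lowest for Opa1, the ratio of highest to lowest was 1.35 for Opa1, and without library H, the highest, it was 1.33. Leaving out either end lowers this ratio in any case. The sum of 8 immune markers ranged from 29.2 to 88.3 CPM, highest in library H, and its part in the values of that library was not tested.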

How the data were processed

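Bulk RNA sequencing of brown fat was deposited as whole-number counts per Ensembl gene, not normalized. FastQC, STAR, DESeq2 and the build GRCm39 are listed in the submitters' processing notes, with no versions. How reads were assigned to genes, and with which annotation and strand setting, is not given in the sources used here. Exons of Dnm1l (4.67% of bases), Mff (2.00%) and Mief1 (2.63%) overlap another gene in GENCODE M21, so some of their reads could belong to it.

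All 9 columns were used as brown fat libraries, 0 were given to a guide and 0 were left out. Symbols came from the gene name table supplied with the reference, which matched 52083 of 55416 identifiers. Counts were divided by the column sum. Other scalings were TMM (edgeR 4.0.16), DESeq2 1.42.0 size factors, and the sum without Ucp1 and mitochondrial genome genes. Rank correlations used all 362880 orders of 9 libraries, with Benjamini-Hochberg adjustment over all genes tested; the smallest possible p is 5.51e-06. The code was tested on simulated data. The labels name no molecular identifiers, so counting errors cover counting only.

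Members and gene lists were chosen with earlier results of these data known. The naming rule took all 10 members, the 8 pairs, the 3 closest genes to Mfn2, Opa1 and Dnm1l, and markers of any list that moved over 4 times. Other dynamics genes were to be named by their rank correlation with Ucp1, which could not be given; those named, the promoter motifs and the promoters shown were chosen after their values were seen.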

Additional observations from a re-analysis of the deposited data

Results flagged for a closer look

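Of 14 sets of values examined, the CPM of the 10 genes and 4 ratios, 1 had a library far from the others. Oma1 was at 11.2 CPM in library A and the next highest library had 9.0 CPM, a gap of 0.638 of the whole range, above Dixon's critical value for 9 values. That library has 199 Oma1 counts. In CPM of the sum without mitochondrial genome genes and Ucp1, Oma1 in library A was 14.5 against 12.9, and the gap was 0.449 of the range, under that value. By the same reduced sum Fis1 in library F, at 90.6 CPM against 73.7 CPM in the next library, had a gap of 0.544 of the range, above it, while in CPM of the column sum its gap was 0.209. Chance alone gives such a gap in about 1 of 20 groups.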

How the results depend on the processing

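The median ratio of highest to lowest library over the 10 genes was 1.44, and it was 1.39 with TMM, 1.38 with DESeq2 size factors, 1.31 with the reduced sum and 1.39 to 1.44 when each library was left out in turn. The number of pairs with rho above 0 was 39 of 45, 29 with TMM and with DESeq2 size factors, 21 with the reduced sum and 36 to 40 with a library left out. The reduced sum turned the sign of rho for Mfn1 with Mfn2 (-0.05), Opa1 with Oma1 (-0.13), Oma1 with Yme1l1 (-0.38), Dnm1l with Mff (-0.17) and Dnm1l with Fis1 (-0.10), and the cause was not tested. The sign for Mief1 with Mief2 turned with TMM (-0.033) and DESeq2 size factors (-0.017). Leaving out 1 library gave rho from -0.26 to 0.24 for Dnm1l with Fis1, negative without library B, H or I. No adjusted p passed 0.05 under any of these settings for the 8 pairs. The genes tested against Ucp1 under other level filters, and a partial correlation given muscle markers, were not run because no relation with Ucp1 was tested. A comparison against genes with a median of at least 10 CPM was added after seeing the data. No paired analysis was possible because no guide or replicate number stands in the column names. Oma1, with 121 counts in its lowest library, has the largest counting error of the 10 genes, near 8.27%.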

Other observations

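Ucp1 in CPM was 459 in library A, 3848 in library B, 4620 in library C, 2704 in library D, 396 in library E, 3652 in library F, 606 in library G, 445 in library H and 3937 in library I. These values fell into separate sets, 4 libraries up to 606 CPM and 5 from 2704 CPM, with a gap of 2.16 on the log2 scale in a range of 3.54. The columns carry no guide, so how these sets relate to the guides is not known here, and no member was tested between them. In the same order of libraries the share of mitochondrial genome counts was 22.3%, 33.8%, 31.5%, 33.2%, 25.8%, 33.9%, 26.5%, 24.9% and 31.8%.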
